A study of Homo sapiens with 4 samples.

Results

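The cells described here are HCT116 cells, a human colorectal cancer line, that had received DAC and SB939 and were then ranked by how much RNA of mitotic genes they held. DAC (decitabine) blocks DNA methyltransferases, and SB939 blocks histone deacetylases (HDAC). A mitotic score was computed for every cell as the summed counts of TOP2A, MKI67, CDC20, CCNB2, AURKA, UBE2C, TPX2, CENPF, HMMR and NUSAP1 over all its gene counts. Of the 4327 cells of the treated HCT116 library, 402 held fewer than 3300 gene and transposable element (TE) counts and were left out. The 3925 others were ranked, and the 981 cells with the highest scores (the top bin) were compared with the 981 with the lowest (the bottom bin). The cells between them form bins 2 and 3. These 1962 cells come from a series of 15289 cells.

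The series holds 4 libraries of single-cell RNA read from the 5′ end of transcripts. HCT116 cells and H1299 cells, a human lung cancer line, were each grown with the solvent DMSO or with both drugs, called DAC+SB here. DAC was given for 72 h and SB939 for 18 h, each at 500 nM. Each combination is 1 library, so no test was possible and no value has a replicate check. The cells were chosen by measured values of the 10 score genes. Those genes were therefore left out of the gene comparisons below, and of the counts by which levels and ratios are divided. The shares in percent of TE, mitochondrial and ribosomal counts were taken over totals that include them. The counts per cell and the number of genes in thinned cells include them too.

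Cells dividing in mitosis have first copied their DNA in S phase and passed G2. Genes needed in S phase, such as those of the replication fork, are switched on by E2F factors as cells leave G1, whereas genes needed in G2 and mitosis are held back until later and are then driven by complexes that contain MYBL2 and FOXM1, acting through promoter elements called CHR. CCAAT boxes, bound by the factor NF-Y, are common in the same promoters. Mitotic kinases led by CDK1 with its cyclins, kinesin motors and the proteins that condense and hold chromosomes make up the products of the late wave. DNA methyltransferase and HDAC inhibitors release TEs that are normally silent, among them LTR12, the long terminal repeat of an endogenous retrovirus.

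The score is a range and not a cell type. The highest score in the bottom bin was 0.0308% of gene counts, and the next cell above it also stood at 0.0308%. The lowest score in the top bin and the next cell below it both stood at 0.130%. Within 10% of the upper limit lay 391 cells, and 146 lay within 10% of the lower limit. The median cell held 1, 5, 9 and 15 counts of the score genes from the bottom to the top bin, and 367 cells of the bottom bin held none. When the score was split into 2 sets of 5 genes, 44.4% of the top bin by CDC20, CCNB2, AURKA, UBE2C and HMMR was also in the top bin by the other 5 genes. Of the bottom bin, 52.2% was shared. Cells in the top bin by 1 set and the bottom bin by the other made up 9.38% or 8.97% of a bin, depending on which set came first. Single cells near the limits are thus uncertain, and the values below are those of cells pooled by bin.

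The bins also differed in other measures of the libraries, whose part in the results was not tested. The median cell held 8226 counts in the bottom bin, 9451 and 9596 in the inner bins and 9201 in the top bin. The median mitochondrial share was 18.9%, 17.8%, 17.0% and 17.6% in that order, and 219 bottom and 205 top cells exceeded 25%. Ribosomal protein genes held a median of 21.1% of counts in the bottom bin and 18.8% in the top. After each cell was thinned to 3300 counts, the median cell held a count of 1182 genes in the bottom bin and 1300 in the top. The nucleotides of the cell barcode were shared with a cell of another library in 66 of the 3925 cells, 17 of them in the bottom and 14 in the top bin. Leaving these cells out gave 310 and 43 called genes and 20 lower TE families, against 310, 44 and 21 with them. The 10 markers of HCT116 epithelial cells summed to 95.6 CPM (counts divided by all gene and TE counts of the bin, on the usual scale) in the bottom and 95.4 CPM in the top bin. The 10 markers of H1299 summed to 399 and 507 CPM, of which VIM alone made up 252 and 320 CPM. Of the 4 markers in each list with enough counts none was 2-fold higher or lower. Over all genes compared 4.02% were higher and 0.571% lower, so little can be read from this. Log2 ratios in the HCT116 list ran from -0.70 (CDX2) to 0.24 (CLDN7), with 2 of the 4 above 0. In the H1299 list they ran from -0.33 (SNAI2) to 0.52 (ZEB1), with 3 of the 4 above 0. The sums thus join markers of opposite sign. No marker of either list was at 0.

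The replication genes had median ratios of 1.05 and 2.10 in treated HCT116 and H1299, and of -0.35 and 0.10 with DMSO. The spindle genes were above 0 in all 4 libraries. The sequences below are therefore promoters of genes from both waves of the cell cycle, whose part in these ratios was not tested. They are shown as the 150 bases before the start site, 5′ to 3′ on the strand of the gene, from RefSeq on GRCh38.p14. Capitals mark every TTTGAA (the core of a CHR element), CCAAT and E2F-type octamer (TTTCCCGC, TTTCGCGC, TTTGCCGC or TTTGGCGC) on either strand, where overlapping matches run together. The first 4 belong to genes among the 12 with the highest ratios that the naming rule gives (at least 200 counts), PLK1 to the list of mitotic kinases, and the last 4 to the list of DNA replication genes. They were chosen because they hold the motif of their wave. Some other genes of these lists hold it too, such as CKS1B and MCM7, and others do not. CDK1, NEK2, KIF20A, CDCA3, CCNA2 and KIF2C, 6 of the 10 highest genes with a promoter, have no TTTGAA in these 150 bases, and the replication genes MCM2, MCM3, RRM2 and CDC6 have no E2F-type octamer there.
HJURP, chr2:233854536-233854685, minus strand: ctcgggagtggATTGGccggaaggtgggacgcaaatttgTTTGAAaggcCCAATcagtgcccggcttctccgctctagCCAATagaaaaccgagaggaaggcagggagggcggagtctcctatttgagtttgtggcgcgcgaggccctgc
CKAP2L, chr2:112764610-112764759, minus strand: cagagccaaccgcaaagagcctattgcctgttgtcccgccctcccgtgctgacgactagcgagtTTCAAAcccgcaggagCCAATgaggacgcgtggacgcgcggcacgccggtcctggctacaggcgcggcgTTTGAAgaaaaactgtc
ASPM, chr1:197146670-197146819, minus strand: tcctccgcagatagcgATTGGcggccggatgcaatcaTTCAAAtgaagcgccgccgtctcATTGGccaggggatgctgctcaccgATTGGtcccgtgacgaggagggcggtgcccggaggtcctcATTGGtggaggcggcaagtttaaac
GTSE1, chr22:46296720-46296869, plus strand: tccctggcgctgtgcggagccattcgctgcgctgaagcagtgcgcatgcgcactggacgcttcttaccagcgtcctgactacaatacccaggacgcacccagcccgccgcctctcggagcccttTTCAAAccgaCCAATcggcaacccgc
PLK1, chr16:23678739-23678888, plus strand: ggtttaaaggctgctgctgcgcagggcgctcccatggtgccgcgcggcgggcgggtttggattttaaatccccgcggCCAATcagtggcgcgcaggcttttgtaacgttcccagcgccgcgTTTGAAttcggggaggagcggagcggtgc
MCM6, chr2:135876444-135876593, minus strand: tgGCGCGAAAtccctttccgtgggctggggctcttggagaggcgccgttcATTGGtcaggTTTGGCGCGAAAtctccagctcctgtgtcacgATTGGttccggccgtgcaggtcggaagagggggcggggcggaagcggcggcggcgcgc
PCNA, chr20:5126623-5126772, minus strand: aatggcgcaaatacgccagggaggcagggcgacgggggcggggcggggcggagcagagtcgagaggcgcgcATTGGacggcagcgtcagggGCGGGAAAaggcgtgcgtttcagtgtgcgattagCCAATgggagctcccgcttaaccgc
DTL, chr1:212035598-212035747, plus strand: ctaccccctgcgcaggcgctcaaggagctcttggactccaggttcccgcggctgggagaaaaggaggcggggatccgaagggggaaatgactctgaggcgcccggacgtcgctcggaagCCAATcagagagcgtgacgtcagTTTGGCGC
UHRF1, chr19:4909351-4909500, plus strand: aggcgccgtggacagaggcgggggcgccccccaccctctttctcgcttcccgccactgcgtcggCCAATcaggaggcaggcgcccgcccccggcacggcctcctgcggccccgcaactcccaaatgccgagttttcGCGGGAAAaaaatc

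In windows from 250 bases before to 50 bases after the start, TTTGAA was found in 21 of 31 promoters (67.7%) of spindle and kinesin genes and in 1 of 42 (2.38%) of DNA replication genes. These lists have 36 and 52 members, and the others had no match in the table. It was found in 15.4% of all 27305 promoters of that length in the table. E2F-type octamers were found in 0 of the 31 spindle promoters, in 24 of the 42 replication promoters (57.1%) and in 3.33% of all promoters. CCAAT was found in 22 of the 31 (71.0%), 24 of the 42 (57.1%) and 35.7% of all promoters. Among the 12 genes with the highest ratios 10 had a promoter in the table, of which 6 held TTTGAA and 9 held CCAAT. A match is a run of letters and not a measured binding site. For the genes called higher or lower as a whole, fewer than 80% had a promoter in the table (242 of 310 and 19 of 44), so that check is void and its shares are not given.

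Genes of mitosis outside the score were higher in the top bin. A gene was compared if the bin with more of it held 100 counts, and it was called higher or lower in the top bin from a 2-fold difference. For members of the gene lists, 100 counts in both bins together were enough, so the shares over all genes rest on a stricter minimum than the counts of list members. Of 7703 genes compared, 310 (4.02%) were called higher and 44 (0.571%) lower. The median log2 ratio over all genes compared was 0.19. All 20 mitotic kinases, cyclins and their regulators with enough counts were called higher, with a median log2 ratio of 2.68. Of 33 spindle and kinesin genes 31 were called higher (median 2.41), and of 31 genes of centromeres, condensin and chromatin 24 were (median 1.56). None of the compared genes of these lists had a log2 ratio below 0. Since the cells were ranked by genes of the same wave, these counts describe the ranking and support nothing beyond it.

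CDK1, the kinase whose activity starts mitosis, had the highest ratio. It had 50, 255, 520 and 886 counts from the bottom to the top bin, or 5.79, 26.1, 53.2 and 92.7 CPM, a 16.0-fold difference (log2 interval 3.59 to 4.44). Its level rose at each step of the score, and the same held for every one of the 12 genes with the highest ratios. Over 18 other settings of ranking, cells and features its log2 ratio ranged from 2.43 to 5.15. These intervals, here and below, are exact 95% intervals for counting error only.

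The other 11 named by the rule fell between log2 ratios of 3.14 and 3.64. KIF18B, a kinesin with 11 and 173 counts and thus under the minimum of 200, was at 3.83. NEK2, a kinase of the centrosome, had 43, 186, 351 and 592 counts over the bins. HJURP, the chaperone that places the centromeric histone CENPA, had 48, 212, 351 and 587. CENPA itself went from 4.40 to 34.7 CPM, a log2 ratio of 2.98. The kinesins KIF20A and KIF2C, motors of cytokinesis and of chromosome attachment, were at 3.42 and 3.20. TTK, the checkpoint kinase MPS1, was at 3.36 from 28 and 319 counts. CCNA2, a cyclin that pairs with CDK2 and CDK1, was at 3.30, rising from 6.72 through 24.8 and 43.1 to 66.2 CPM. CDCA3, CKAP2L, CDCA2, GTSE1 and ASPM completed the group at 3.38, 3.32, 3.26, 3.20 and 3.14.

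CCNB1, PLK1 and AURKB mark mitosis and lie outside the score, but belong to the same wave, so they describe the ranking and do not test the name of these cells. CCNB1, the cyclin of CDK1 at mitotic entry, had 285, 560, 843 and 1349 counts, a log2 ratio of 2.10 (1.91 to 2.29). PLK1, a kinase of the spindle poles, had 79, 173, 367 and 541 counts and a ratio of 2.63 (2.29 to 2.99). AURKB, the kinase of the chromosomal passenger complex, was at 2.73, and its partner BIRC5 at 2.17. The regulators of the late wave rose as well, FOXM1 with a ratio of 2.38 (1.86 to 2.94) and MYBL2 with 1.87 (1.46 to 2.30). The lowest ratio among the kinases and cyclins was that of CDC25B, a phosphatase that activates CDK1, at 1.06. The tubulins TUBB4B and TUBA1C were the 2 spindle genes short of 2-fold, at 0.99 and 0.92.

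**Figure D1:**
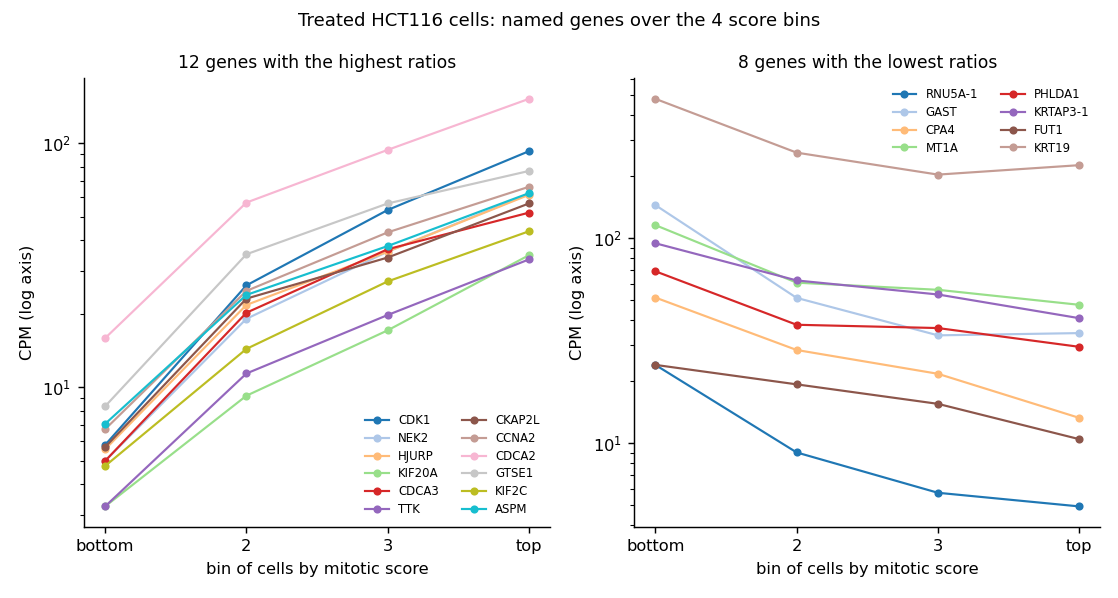
Level of each named gene in CPM (log axis) in the bottom bin, bin 2, bin 3 and the top bin of treated HCT116 cells by mitotic score, with the 12 genes of highest ratio under the naming rule (at least 200 counts) on the left and the 8 of lowest ratio under it on the right. CDK1 climbs from 5.79 to 92.7 CPM, and KRT19, the most abundant of these 8, goes from 478 to 227 CPM.

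In the treated library DNA replication genes were higher in the top bin as well. Of 48 genes with enough counts, 28 were called higher and none lower, 47 had a log2 ratio above 0 and the median was 1.05. Over all 7703 genes compared 4.02% were called higher and 0.571% lower, 5578 were above 0 and the median was 0.19. Their summed level was 858, 1527, 1862 and 1995 CPM from the bottom to the top bin. The steepest step therefore lay between the bottom bin and bin 2, and bin 3 and the top bin differed least. RRM2, which makes deoxynucleotides, had 111, 452, 585 and 695 counts, a log2 ratio of 2.50 (2.21 to 2.80). MCM10, which fires replication origins, was at 2.13 (77, 255, 356 and 374 counts) and CDC6, which licenses them, at 1.85 (181, 473, 662 and 722 counts). PCNA, the clamp of the replication fork, was at 0.95 and MCM6, a subunit of the helicase, at 0.82, both short of 2-fold. CCNE1, the cyclin of S phase entry, was the only compared member below 0, at -0.28 (-0.86 to 0.29), an interval that includes 0.

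In the HCT116 DMSO library, ranked by the same rule (914 cells a bin), the same list had no gene called higher and 8 of 52 called lower in the top bin. Its median log2 ratio was -0.35, 14 of the 52 ratios were above 0, and the summed level was 3028, 3421, 2973 and 2475 CPM. The late wave had ratios above 0 here too, since 17 of 21 kinases and cyclins (median 1.91) and 32 of 33 spindle genes (median 1.96) were called higher. CCNE2 was at -2.34 in the DMSO library and at 0.89 in the treated one, CDC6 at -1.15 and 1.85, and DTL, a substrate receptor that acts with PCNA, at -1.38 and 1.60. Of all 9701 genes compared with DMSO 2.26% were called higher and 0.206% lower. At every bin the summed level of the replication list was below its DMSO counterpart, and the bottom bin stood furthest below it. The outer bins also covered different scores in the HCT116 libraries. Their median scores were 0.0122% and 0.171% in the treated library and 0.0506% and 0.261% with DMSO. No count of the score genes was held by 367 bottom cells of the treated library and by 32 with DMSO. The ratios thus compare unlike ranges of the score. The difference between the libraries was not tested, since each is 1 sample.

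With DAC+SB in H1299, 41 of 52 replication genes were called higher and none lower, with a median of 2.10 and summed levels of 598, 1487, 2434 and 2373 CPM. With DMSO, 1 was called higher and 2 lower, 28 of 52 were above 0, the median was 0.10, close to the 0.11 of all 9893 genes compared there, of which 6185 were above 0, and the levels were 2579, 3712, 3378 and 2895 CPM. Over all genes 8.13% were called higher and 1.62% lower in H1299 DAC+SB, and 3.19% and 1.12% in H1299 DMSO. The late wave had larger ratios in treated H1299 than in treated HCT116, with medians of 4.91 for kinases and cyclins and 4.31 for spindle genes. The scores of the outer bins were also further apart there, with medians of 0.00580% and 0.302%, against 0.0122% and 0.171% in treated HCT116. In H1299 DMSO they were 0.0389% and 0.344%. The ratios of these libraries thus compare unlike ranges of the score. Of the 310 genes called higher in treated HCT116, 301 of 303 compared had a ratio above 0 in H1299 DAC+SB, 271 of 298 in H1299 DMSO and 244 of 297 in HCT116 DMSO. Over all genes 6907 of 10451, 6185 of 9893 and 7114 of 9701 were above 0 there. Past 2-fold in the same direction were 275, 139 and 118 of those compared. In all 4 libraries 113 of 6761 genes compared were called higher and none lower in all 4, but only 8 of the 44 genes called lower in treated HCT116 were among those compared. Of the 44, 24 of 25 compared had a ratio below 0 in H1299 DAC+SB, 13 of 15 in H1299 DMSO and 9 of 10 in HCT116 DMSO, and past 2-fold lower were 9, 6 and 0. These libraries differ in depth, with median counts of 15784.5 to 17369.5 a cell in the others against 9156 here.

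**Figure D2:**
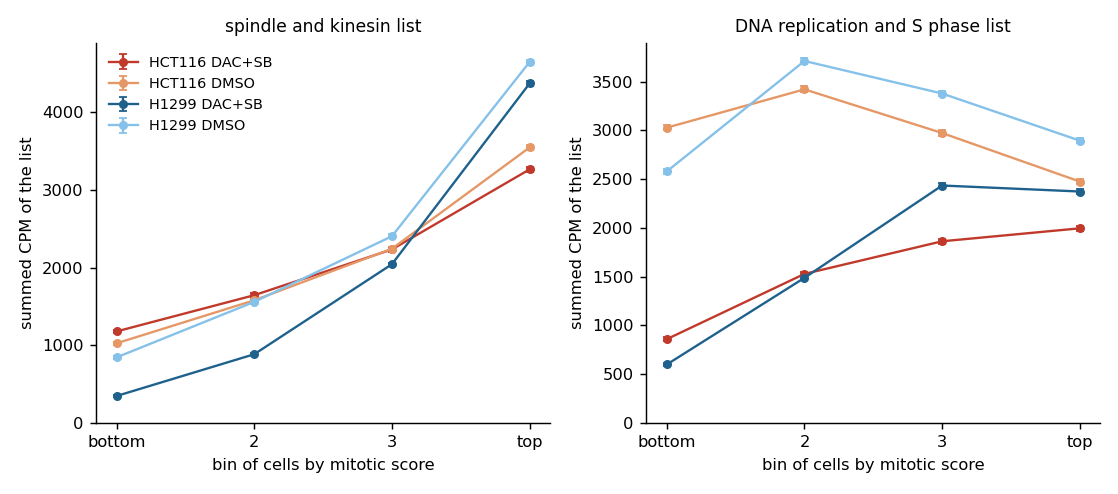
Summed CPM of the spindle and kinesin list (left) and of the DNA replication and S phase list (right) over the 4 bins by mitotic score in each library, with exact Poisson 95% intervals that are mostly smaller than the points. The spindle list climbs in all 4 libraries, whereas the replication list climbs from 858 to 1995 CPM in treated HCT116 and ends at 2475 CPM, below its start of 3028 CPM, in HCT116 DMSO.

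HIST1H4C and HIST1H1E encode a core and a linker histone. HIST1H4C went from 243 to 638, 835 and 670 CPM over the bins, a log2 ratio of 1.46 (1.39 to 1.54), and HIST1H1E from 101 to 307 CPM, a ratio of 1.61. In the HCT116 DMSO library the same genes were at -0.50 and -0.16. The other 13 histone genes compared were not called, where 4.02% of all genes were called higher and 0.571% lower. The median of the list was 0.25, near the 0.19 of all genes.

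Of 9 genes of DNA methylation, its removal and histone deacetylation 2 were called higher, UHRF1 and DNMT3B (the latter under the minimum for the comparison of all genes), and of 14 genes that silence TEs 2 were, against 4.02% of all genes. DNMT1, the maintenance methyltransferase that DAC traps on DNA, had 754, 1185, 1418 and 1587 counts, a log2 ratio of 0.93 (0.80 to 1.05). UHRF1, which brings DNMT1 to replicated DNA, was at 1.73 (92, 284, 339 and 338 counts) and DNMT3B at 1.14, from only 32 and 78 counts. HDAC1 was at 0.76 (0.52 to 1.00), HDAC2 at 0.21 and HDAC3 at 0.08, the last below the median of 0.19 over all genes. In the HCT116 DMSO library UHRF1 was at -0.82, DNMT1 at 0.24 and DNMT3B at 2.27, above its ratio with treatment. All 14 silencing genes compared were above 0, as were 5578 of all 7703 genes. The 2 called were CBX5, a heterochromatin protein (1.05), and HELLS, a chromatin remodeller (1.01). UHRF1 and HELLS are also on the list of DNA replication genes, so their calls are counted there too. TRIM28, the corepressor recruited by zinc finger proteins, was at 0.39 and SETDB1, its methyltransferase, at 0.16 (-0.29 to 0.62), an interval that includes 0.

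For lists of arrest, stress and interferon genes the counts called stood near the share over all genes, 4.02% higher and 0.571% lower, so that little can be read from them. None of 29 p53 targets was called, and their median was 0.03, where that of all genes was 0.19. CDKN1A, which encodes the CDK inhibitor p21 and whose level was 106, 95.6, 97.6 and 112 CPM over the bins, had a log2 ratio of 0.09 (-0.04 to 0.21). MDM2 was at 0.15 (-0.11 to 0.42). TNFRSF10B, a death receptor, was highest of that list at 0.54. Of 16 genes of G1 control 1 was called, RBL1, a relative of the retinoblastoma gene, at 1.18. CDKN1C, another CDK inhibitor, was at -0.33. None of 20 interferon-stimulated genes was called. IRF7, a factor that drives interferon genes, was at -0.49 (-0.60 to -0.38). Among 14 immediate early genes none was called, with MYC at -0.42, JUN at -0.30 and EGR1 at 0.39. Of 12 genes of apoptosis none was called, the lowest being the death gene BIK at -0.78 (-0.91 to -0.65) and the highest the survival gene MCL1 at 0.60 (0.42 to 0.79). Of 11 genes of the ATF4 stress response none was called, and the median was 0.24. The 24 ribosomal protein genes had a median of -0.14 and the 10 mitochondrial mRNAs one of -0.09.

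**Figure D3:**
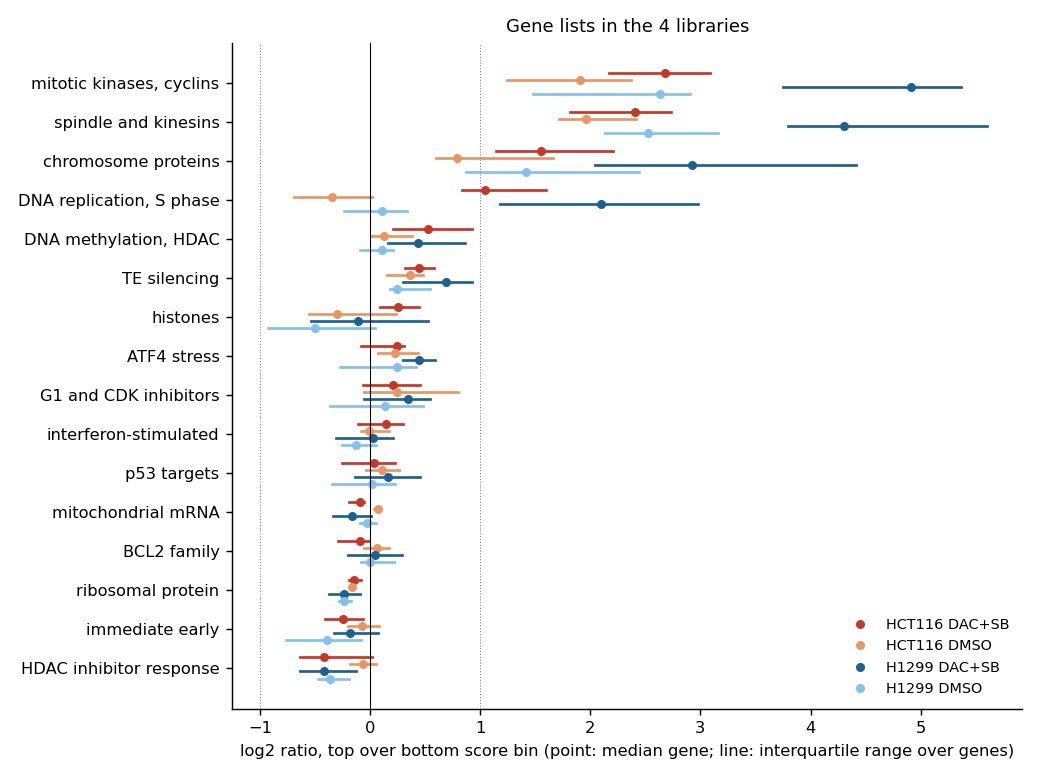
Median log2 ratio of top over bottom bin (points) and interquartile range over the genes of each list (lines) in the 4 libraries. The 3 mitotic lists lie to the right of 0 in every library, the replication list lies at 1.05 in treated HCT116 and at -0.35 in HCT116 DMSO, and the p53 list lies near 0 in all 4.

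The genes lower in the top bin were few, and most of them were genes that the treated library held far above the DMSO library. Of the 44 genes called lower, 29 (65.9%) stood 4-fold or more above the DMSO HCT116 library in the treated one. This held for 443 (5.75%) of all 7703 genes compared and 12 (3.87%) of the 310 called higher. Genes called lower met the count minimum through the bottom bin, whose cells are also part of the treated library. Both ratios thus share counts, so these shares describe the genes and are not separate support for a link with treatment. By the rule for naming, 8 of the 44 were past 2-fold in the sums, in thinned cells and in the mean over cells, with at least 200 counts. GAST, the gene of the hormone gastrin, had 1251, 499, 328 and 329 counts over the bins, a log2 ratio of -2.07 (-2.25 to -1.90). It had 4 counts in the DMSO library, the deeper of the 2, and 2467 in the treated library. CPA4, a carboxypeptidase, had 443, 278, 213 and 127 counts, a ratio of -1.95 (-2.25 to -1.66), with 96 counts in the DMSO library.

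MT1A, a metallothionein, was at -1.29 (-1.45 to -1.13) from 999 and 452 counts and had 3 counts in the DMSO library. The keratin associated protein gene KRTAP3-1 was at -1.21 (815 and 389 counts) and the fucosyltransferase gene FUT1 at -1.20 (208 and 100 counts). PHLDA1 was at -1.22 (595 and 282 counts). It was the exception among these 8 in being lower in the treated than in the DMSO library, at -2.72. KRT19, an epithelial keratin, had 4125, 2549, 1994 and 2168 counts, a ratio of -1.07. Some features of the table carry a number after the gene name. Those without one gave ratios of -0.18 for MT1A, -0.75 for KRT19 and -0.89 for PHLDA1. Ranked by CDC20, CCNB2, AURKA, UBE2C and HMMR alone, 6 of the 8 low genes were not past 2-fold lower, with RNU5A-1 at 0.11, FUT1 at -0.38, KRT19 at -0.83, MT1A at -0.89, PHLDA1 at -0.94 and KRTAP3-1 at -0.98. KRTAP3-1 was short of 2-fold in 3 other settings too, between -0.81 and -0.97, CPA4 in 1 (-0.89) and PHLDA1 in 1 (-0.96).

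The counts behind these genes were not spread alike over cells. RNU5A-1, a gene of the spliceosomal U5 RNA, had the lowest ratio by the rule, -2.29 from 208 and 47 counts, but 151 of the 208 counts came from 1 cell. Without the 10 cells with most of its counts in each bin it was at -0.39. KRT19 counts were found in 744 bottom and 671 top cells, GAST counts in 283 and 154. Leaving out the 10 cells with most counts in each bin gave -2.16 for GAST, -1.98 for CPA4, -1.24 for MT1A, -1.50 for KRTAP3-1 and -1.10 for KRT19.

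Several other lower genes are named here after their values were seen. NEAT1, a long RNA that builds nuclear paraspeckles, had 11101, 10498, 8099 and 5998 counts, a log2 ratio of -1.03 (-1.08 to -0.99), with -0.60 in HCT116 DMSO, -1.56 in H1299 DAC+SB and -1.41 in H1299 DMSO. MALAT1, another abundant nuclear RNA, was at -0.16. CITED2, a transcriptional coregulator, was at -1.12. SLPI, a protease inhibitor, was at -2.33 and KRTAP19-5 at -3.09, from 123 and 161 counts in the bottom bin and 0 in the DMSO library. Only 42 bottom and 13 top cells held a KRTAP19-5 count, and 10 cells held 70.2% and 85.7% of its counts. The transcripts RP11-432M8.17 and RP11-432M8.22, both at 0 counts in the DMSO library, differed in sign, at 3.04 (28 and 255 counts) and -1.54 (1526 and 583 counts).

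Genes induced by the treatment did not all follow this direction. Of a list of 12 genes, taken as induced from earlier results on these libraries, 1 was called lower and none higher. Of all genes 0.571% were called lower and 4.02% higher. The median of the list was -0.44. In HCT116 DMSO only S100A6 and MT1E of the list met the minimum, yet it already summed to 4484 and 4082 CPM in the outer bins. In H1299 DMSO it summed to 7.07 and 5.96 CPM. At least 1 of these 2 genes was thus abundant in HCT116 without the drugs. CCK, the gene of cholecystokinin, was at -0.73 (3543 and 2365 counts), AC095067.1 at -0.75 and S100A6 at -0.60, whereas PNMA5 was at 0.62 (296 and 503 counts). Of 10 genes known to respond to HDAC inhibitors none was called, against the same shares, with a median of -0.42, H1F0 highest at 0.25 and TXNIP lowest at -0.95.

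**Figure D4:**
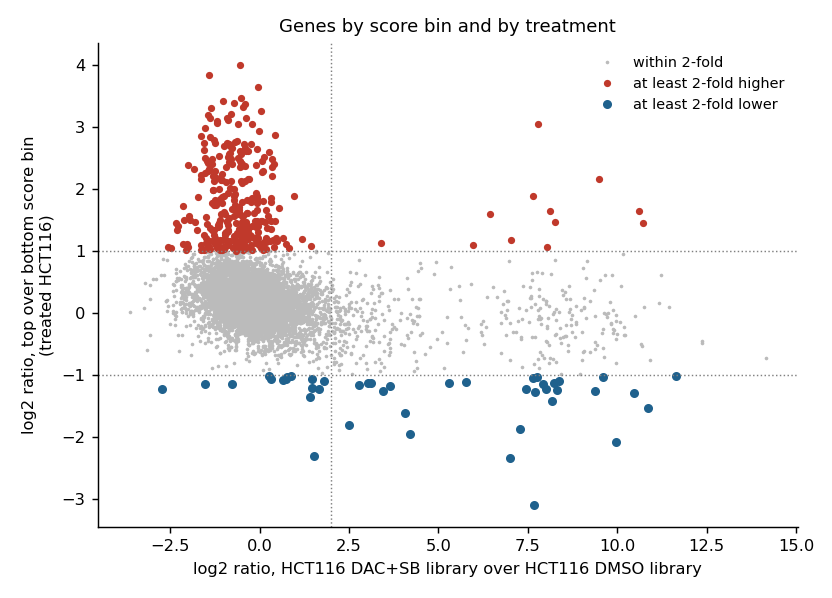
Log2 ratio of top over bottom bin in treated HCT116 (vertical axis) against the log2 ratio of the treated over the DMSO HCT116 library (horizontal axis) for the 7703 genes compared, with dotted lines at 2-fold and 4-fold. Of the 44 genes called lower 29 lie to the right of the 4-fold line, and of the 310 called higher 12 do. Both axes use counts of the bottom-bin cells, so they are not independent.

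TE counts made up a smaller share of the top bin. They held 5.73% (5.71 to 5.75) of all counts in the bottom bin, 6.01% and 5.69% in the inner bins and 4.74% (4.73 to 4.75) in the top bin, a log2 ratio of -0.27. The share was thus highest in bin 2 and lowest in the top bin. In cells thinned to 3300 counts the median share was 4.88%, 5.24%, 5.09% and 4.09%. TE groups differed in this. The LTR12 families held 28626, 34862, 34436 and 29652 CPM, a ratio of 0.05 (0.04 to 0.06). Its sign was not stable, since it was -0.070 when cells were scored over gene and TE counts and 0.34 when they were scored after thinning. Alu elements, short repeats that are transcribed on their own or lie inside genes, held 16990, 14877, 13178 and 8882 CPM, a ratio of -0.94 (-0.95 to -0.92). As a share of TE counts LTR12 went from 50.0% to 62.4% and Alu from 29.6% to 18.7%.

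The lower Alu level was spread over families, loci and cells. Of 42 Alu families listed, 31 had at least 100 counts in the bin of higher level, and all 31 were below 0 (-1.54 to -0.71). Of these, 13 were among the 21 families (16.2% of 130 compared) called lower. The 1 family with an AluJ name, too low to compare, had 33 counts in the bottom and 38 in the top bin. No family was called higher. No family was called lower when cells were ranked by CDC20, CCNB2, AURKA, UBE2C and HMMR, and 1 was when they were scored after thinning. AluY names went from 3511 to 1695 CPM (-1.05) and AluS names from 13475 to 7183 CPM (-0.91). Alu counts lay in 67564 loci, of which the 10 with most held 2.45% of them, and without those 10 the ratio was -0.93. Of 46 Alu loci with at least 100 counts in the bin of higher level, all were below 0 and 28 were called lower. Being below 0, the 31 families and the 46 loci all passed that minimum through the bottom bin, so neither count is separate support. Over all 748 TE loci 13.2% were called lower and 2.54% higher. In thinned cells the median number of Alu counts was 36, 29, 27 and 15 from the bottom to the top bin, and the interquartile ranges of the outer bins were 16 to 66 and 7 to 33. Whether these counts come from Alu transcripts or from longer RNAs that hold an Alu was not tested.

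The size of the Alu difference moved with how cells were scored. It was -0.48 when cells were ranked by CDC20, CCNB2, AURKA, UBE2C and HMMR alone and -0.83 by the other 5 genes. When cells were scored after thinning it was -0.36, and the TE share then turned to 0.09. There the score takes few whole values and is divided by gene counts alone, which orders cells of equal score counts by TE share. Scored over gene and TE counts, the thinned cells gave -0.78 for Alu and -0.23 for the TE share.

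Of the other LTR families, LTR8 had the lowest ratio with at least 500 counts, -1.59 (1206 and 444 counts), and was at -1.15 without locus 6290754, which went from 457 to 71 counts. LTR13 and LTR13A were at -1.08 and -1.20. The THE1 families together went from 5855 to 4110 CPM (-0.51), and L1 families from 1218 to 1162 CPM (-0.07). The L1 ratio ranged from -0.25 to 0.37 over 16 other settings, so its sign was not stable. LTR12D had the highest ratio of any family with at least 500 counts, 0.40 (0.38 to 0.43), but was at -0.05 without locus 1701101, which had 7404 counts in the bottom and 14739 in the top bin. LTR12C, which held most LTR12 counts, was at 0.03 (204928 and 231676 counts). Among its loci the ratio was 0.44 at 1700968, the locus with most counts, 0.79 at 4056075, -0.15 at 6056768 and -0.17 at 5093379. Of 540 LTR12 loci 17 were called higher and 42 lower, where 2.54% of all 748 TE loci were called higher and 13.2% lower. Of the 540 loci, 288 were below 0, so a ratio near 0 for the group joins loci that differ in sign. MLT1E3 locus 4636841, chosen after its values were seen, went from 25 to 238 counts, a ratio of 3.10. The number in a TE feature was taken to name a locus, which the sources used here do not state, and all locus counts rest on this. No locus is placed in the genome here.

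Alu was lower in the top bin of both HCT116 libraries and of treated H1299. The Alu ratio was -0.45 in HCT116 DMSO (1111, 1185, 1196 and 815 CPM over the bins) and -0.50 in H1299 DAC+SB (5124, 5959, 5673 and 3621 CPM). In both libraries the inner bins stood above the bottom bin, whereas in treated HCT116 each bin stood below the one before. In thinned HCT116 DMSO cells the median number of Alu counts was 2 in the bottom and 2 in the top bin. The Alu ratio was -0.02 (-0.21 to 0.17) in H1299 DMSO, where only 433 and 503 Alu counts were found. The LTR12 ratio, 0.05 in treated HCT116, was at 0.35 in HCT116 DMSO, -0.69 in H1299 DAC+SB and -0.50 in H1299 DMSO. In treated H1299 the level of LTR12 was 24123, 24552, 19520 and 14980 CPM over the bins, lowest in the top bin, whereas in treated HCT116 the 2 inner bins stood above both outer ones. The TE share as a whole had ratios of -0.07, -0.66 and -0.24 in HCT116 DMSO, H1299 DAC+SB and H1299 DMSO. Tables list 42, 23, 38 and 11 Alu families in HCT116 DAC+SB, HCT116 DMSO, H1299 DAC+SB and H1299 DMSO, and the differences between libraries were not tested.

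**Figure D5:**
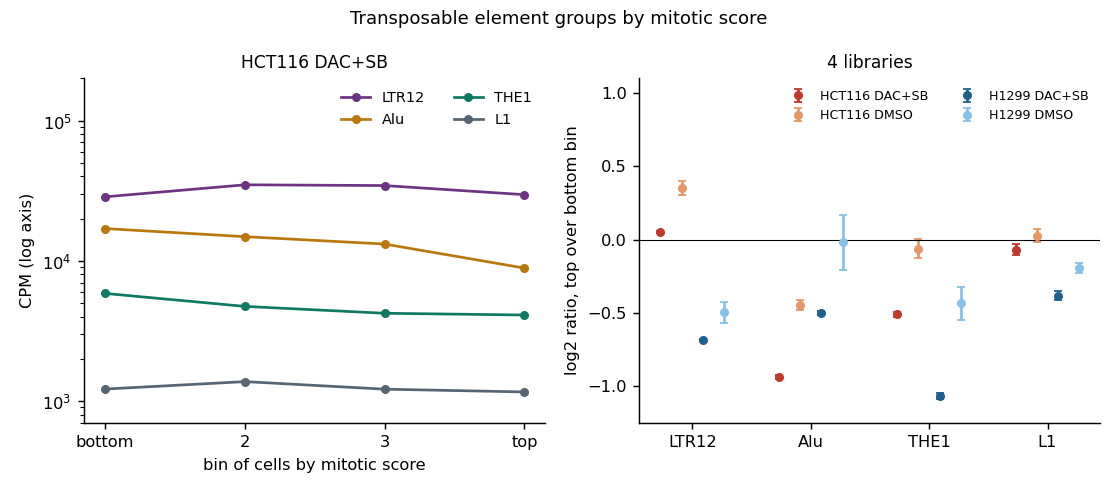
Left, level of 4 TE groups in CPM (log axis) over the bins of treated HCT116 by mitotic score. Right, log2 ratio of top over bottom bin for the same groups in the 4 libraries with exact 95% intervals for counting error. Alu goes from 16990 to 8882 CPM in treated HCT116 while LTR12 starts at 28626 and ends at 29652 CPM.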

How the data were processed

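Single-cell RNA was sequenced from the 5′ end in 4 libraries, 1 per group, and the authors deposited whole-number counts per gene or TE feature and cell. Per the submitters' processing notes, CASAVA and STAR were used with GRCh38. The counting tool, the annotation, the filter that kept these cells and whether counts are of unique molecules are, for these libraries, not given in the sources used here.

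Features were summed by gene name (61838 features, 43296 names), and 2419 names that join several genes were compared only in an alternative. Counts were summed per bin and divided by all gene and TE counts of that bin without the score genes. Ratios carry exact conditional binomial 95% intervals, shares Clopper-Pearson and sums Poisson intervals, all for counting error only. A side at 0 was set to 3 counts, so that such a ratio is a bound. Ties in the score were broken by cell name. No test was run, since cells of 1 library are not replicates, and no doublet caller was used. Lists were counted over members with at least 100 counts in the bins together. The ratio calculation was tested on simulated data. Python 3.11.15, numpy, scipy, pandas and matplotlib were used.

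The cells and lists were chosen with earlier results of these data known. Named genes were list members and the 12 highest and 12 lowest ratios with at least 200 counts, past 2-fold in the sums, in thinned cells and in the mean over cells, of which only 8 low genes qualified. Named TE families were the 8 highest and 8 lowest with at least 500 counts, and named loci the 10 with most counts. Alternatives changed thinning, ranking, score genes, denominators, features, cells, folds and count minimums. Leaving out a replicate was not possible. Some items are not reported here.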

Additional observations from a re-analysis of the deposited data

Results flagged for a closer look

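CDC6 and DTL moved in opposite directions in the HCT116 libraries under the same ranking. The log2 ratio of top over bottom bin of CDC6 was 1.85 (1.61 to 2.09) in the treated library and -1.15 in the DMSO library. That of DTL was 1.60 (1.19 to 2.03) and -1.38 (-1.61 to -1.16). The outer bins covered different scores in these libraries. Their median scores were 0.0122% and 0.171% in the treated library and 0.0506% and 0.261% with DMSO. With 1 library each, the difference was not tested.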

How the results depend on the processing

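No paired analysis was possible because each group is 1 library and no test was made, and no replicate could be left out. The 310 genes called higher became 138 in thinned cells, 142 in thinned cells scored over gene and TE counts, 182 in thinned cells chosen before thinning, 176 by CDC20, CCNB2, AURKA, UBE2C and HMMR, 991 at 1.5-fold, 103 at 4-fold, 533 with at least 20 counts and 87 with at least 500. The 44 called lower became, in the same order, 9, 5, 13, 12, 177, 4, 296 and 11, with 17 in the outer 10% by score and 15 over features without a number. Thinning leaves fewer genes with 100 counts by construction. The median of kinases and cyclins was 1.75 thinned, 1.78 thinned and scored over gene and TE counts, 3.83 in the outer 10% and 1.87 by those 5 genes. That of spindle genes was 1.88 thinned, 3.73 in the outer 10% and 1.66 by the 5 genes, that of chromosome genes 1.23 thinned and 2.24 in the outer 10%, and that of replication genes 1.64 in the outer 10% and 0.73 by the 5 genes. The p53 median moved little in every setting.

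The log2 ratio of the TE share was 0.095 thinned, -0.23 thinned and scored over gene and TE counts, -0.21 thinned with cells chosen before, -0.20 as a mean over cells, -0.25 within 10 depth ranges, -0.22 in the outer 10% by score, -0.36 without mitochondrial and ribosomal genes, -0.31 without cells above 25% mitochondrial counts, -0.26 without the deepest 5% of cells, -0.28 with at least 3300 gene counts, -0.15 by the 5 genes and -0.30 by the other 5, -0.29 over gene counts and -0.37 scored over gene and TE counts. The log2 ratio of LTR12 counts, in the same order, was 0.34, 0.020, 0.13, 0.13, 0.011, 0.11, -0.039, -0.0024, 0.061, 0.033, 0.031, -0.036, 0.036 and -0.070, so its sign is not settled. The log2 ratio of Alu counts was -0.36 thinned, -0.78 thinned and scored over gene and TE counts, -0.80 within 10 depth ranges, -0.85 in the outer 10% by score, -1.03 without mitochondrial and ribosomal genes, -0.95 without cells above 25% mitochondrial counts, -0.48 by the 5 genes and -0.83 by the other 5, -0.95 over gene counts and -1.05 scored over gene and TE counts. Families called lower numbered 1 thinned, 7 thinned and scored over gene and TE counts, 13 thinned with cells chosen before, 11 within 10 depth ranges, 0 by the 5 genes, 32 scored over gene and TE counts, 48 at 1.5-fold, 0 at 4-fold and 11 with at least 500 counts. Families called higher numbered 1 thinned, in the outer 10% and by the 5 genes, and 10 with at least 20 counts. The log2 ratio of median depth was 0.00047 within 10 depth ranges by construction, and the mitochondrial difference, -1.27 percentage points, was -2.70 by the 5 genes. Of 360 values of the 20 named genes under the settings that rank or count anew, 345 were past 2-fold in the direction reported. The 15 others all belong to the 8 low genes, 6 of which lost 2-fold by the 5 genes, and 2 were reversed, both of RNU5A-1. RNU5A-1 reversed to 0.080 in the outer 10% and 0.11 by the 5 genes. Thinned cells and the mean over cells were part of the rule that named the 20 genes, so their values there were past 2-fold by construction. The 20 genes were also picked for their extreme ratios in these same cells, so 345 of 360 is not a measure of stability. Where no construction is named, the cause was not tested. Settings on gene counts as denominator, shared barcodes, scoring over gene and TE counts and the last 2 kinds of thinning were chosen after seeing the data.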
